A study of Mus musculus with 2 samples.

Results

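The Dlk1-Dio3 cluster is a long run of miRNA hairpins in an imprinted domain of mouse chromosome 12. Its 37 members here were chosen by name, as the rows of both scanner files whose miRNA name equalled a listed member, out of 1881 mouse miRNAs on the array. The RNA came from exosomes, vesicles that cells shed into their medium, of LLC (Lewis lung carcinoma), an established line from a mouse lung tumour. Before collection the line had spent 24 h in serum-free medium that contained 5 µM cisplatin, a platinum drug that crosslinks DNA. Both samples belong to this 1 group, come from experiments that the submitters call independent, and were each read on a separate one-colour miRNA array. The sources used here do not give how the vesicles were isolated, and untreated cells were not analysed here. The values below therefore describe which cluster miRNAs gave a signal in these vesicles, not what cisplatin changed, and with 1 group no p-value was computed.

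The genes of this domain that code for protein, among them Dlk1, Rtl1 and Dio3, are expressed from the chromosome inherited from the father. The non-coding transcripts Meg3, Rian and Mirg and the miRNAs are expressed from the chromosome inherited from the mother, as parts of long precursor RNAs. The miRNAs are known mainly from the embryo, the placenta and the brain, where several of them act in neurons. Each hairpin can give a mature miRNA from its 5′ arm and from its 3′ arm, and bases 2 to 8 of a mature miRNA, its seed, pair with target mRNAs.

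On both arrays 2 of the 37 members were detected, mmu-miR-494-3p and mmu-miR-370-3p (below without the species prefix mmu), which is 5.41% of the members against 10.7% of all 1881 miRNAs on the array. A miRNA counted as detected where the scanner software's own flag was set, which in both files meant that the total signal of at least 1 probe exceeded 3 times its error. The other 35 members were detected on neither array, and none of their 89 probes rose above the negative-control spots by the limit described below. The signal of the members thus came from 1 arm of each of 2 hairpins, which are apart on the chromosome.

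Mature sequences were available for 34 of the 37 members in RefSeq on GRCm38.p6, and all of them lie on chromosome 12, from position 109572004 for the first base of miR-673-5p to 109743784 for the last base of miR-410-3p. The detected pair and their opposite arms are shown first, because detection stopped at 1 arm of each hairpin. Seeds are in capitals.
miR-494-3p: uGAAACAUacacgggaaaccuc
miR-494-5p: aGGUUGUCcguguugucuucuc
miR-370-3p: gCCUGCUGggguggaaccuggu
miR-370-5p: cAGGUCACgucucugcaguu
On the plus strand, miR-494-3p occupies chr12:109715367-109715388 and miR-494-5p chr12:109715334-109715355. The arms of miR-370 lie upstream, miR-370-3p at chr12:109618305-109618326 and miR-370-5p at chr12:109618270-109618289, also on the plus strand. Mir370 lies inside the annotated span of Rian, whereas Mir494 lies inside no annotated host gene in the table used. The seeds of miR-494-3p and miR-370-3p differed from each other and were shared by 0 other mature mouse miRNAs in the table. Among the 34 members with a sequence there were 34 distinct seeds, so the cluster members do not form a seed family.

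The members that share the longest run of bases with the bright pair are shown next, together with the brightest undetected members, so that their letters can be set against the values below.
miR-323-3p: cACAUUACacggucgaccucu
miR-758-3p: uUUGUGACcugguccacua
miR-668-3p: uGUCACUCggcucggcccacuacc
miR-539-5p: gGAGAAAUuauccuuggugugu
The longest run of bases that miR-494-3p shared with another member was 7 bases, UACACGG, which starts at base 8 of miR-494-3p and at base 6 of miR-323-3p. For miR-370-3p the longest shared run was also 7 bases, ACCUGGU, from base 16, and it was shared with miR-758-3p from base 7. The closest pairs of members elsewhere in the cluster were far more alike, with 19 of 22 identical bases between miR-300-3p and miR-381-3p, 18 of 21 between miR-376a-3p and miR-376b-3p and 18 of 22 between miR-543-3p and miR-495-3p. All of these relatives were undetected. In base composition, miR-370-3p had the highest GC content of the 34 members, 68.2% against a median of 47.6%, whereas miR-494-3p had 45.5%, and 21 of the 32 undetected members with a sequence had as much or more. Over those 32 members, which share both arrays, GC content and mean intensity had a Pearson correlation of -0.0189 and a Spearman correlation of -0.111, given as a description.

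Seeds were shared between a member and another mature miRNA of the cluster in 2 cases, and these are shown because such miRNAs would share predicted targets.
miR-299a-3p: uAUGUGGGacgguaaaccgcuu
miR-299b-3p: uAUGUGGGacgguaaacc
miR-379-5p: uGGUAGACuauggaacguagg
miR-1193-5p: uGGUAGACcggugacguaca
None of these 4 miRNAs was detected, and miR-379-5p and miR-299a-3p had the lowest mean intensities of the 37 members.

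Each array held 58594 spots, of which 56430 belonged to 4415 miRNA probes, and no spot was saturated. Array 1 detected 312 miRNAs (16.6%), array 2 detected 202 (10.7%), and 201 were detected on both. The 75th percentile of the miRNAs detected on both arrays was 6.29 on the log2 scale on array 1 and 4.58 on array 2, so the scaled values below have 1.71 log2 units removed between the arrays. Of the marker lists, 4 of 6 mesenchymal miRNAs (of miR-199a, miR-199b and miR-214) were detected on both arrays, against 0 of 7 epithelial, 0 of 4 muscle, 0 of 3 red cell and 0 of 7 neural and endocrine miRNAs, the last being the tissues in which the cluster is best known. Of the neural and endocrine list, 1 was detected on 1 array. Of all miRNAs 10.7% were detected on both arrays, and lists of 3 to 7 miRNAs with 0 detected cannot be told apart from that share.

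miR-494-3p, the 3′ arm of its hairpin, was measured by 2 probes with 15 printed spots each. Probe A_54_P2824 had a mean processed intensity, in arbitrary units after the scanner software's background subtraction, of 5856 ± 118 (SD, 15 spots) on array 1 and 4210 ± 86.8 (SD, 14 spots) on array 2. Probe A_54_P4400 gave 2489 ± 34.5 (SD, 14 spots) and 1675 ± 57.4 (SD, 15 spots). Both probes were brighter on array 1, and the spots of the arrays did not overlap for either probe. The brighter probe exceeded the dimmer by 2.35 times on array 1 and by 2.51 times on array 2, so the 2 probes disagreed on the level by a ratio that was nearly the same on both arrays. The brightness of a spot depends on its probe as well as on the amount of miRNA, and the probes of one miRNA therefore give no common amount. All 29 kept spots of each array were marked well above background. The total signal listed by the scanner software was 1770 on array 1 and 1248 on array 2, which is 13.1 and 13 times its listed error.

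miR-370-3p, a 3′ arm from within Rian that has been studied in liver lipid metabolism, was also measured by 2 probes of 15 printed spots. Probe A_54_P2726 had a mean intensity of 105 ± 6.41 (SD, 14 spots) on array 1 and 76.6 ± 4.94 (SD, 13 spots) on array 2. Probe A_54_P2727 gave 98.5 ± 18.6 (SD, 15 spots) and 78.0 ± 6.60 (SD, 13 spots). The 2 probes of miR-370-3p differed by 1.06 times on array 1 and 1.02 times on array 2, less than the spread of their spots. The kept spots of A_54_P2726 did not overlap between the arrays, at 90.7 or more on array 1 and at 86.3 or less on array 2, whereas those of A_54_P2727 did. The spot of A_54_P2726 left out as an outlier on array 1, at 70.2, lay within the range of array 2. All kept spots, 29 on array 1 and 26 on array 2, were marked well above background, and the listed totals of 43.1 and 32.8 were 13.5 and 13.2 times their errors. Per probe, the total of miR-370-3p was 9.65 and 9.48 times its error on array 1, against 10.0 for both probes of miR-494-3p.

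The spread of probe A_54_P2727 on array 1 was uneven. Of its 15 spots, 6 lay at 69.3 to 82.5 and 9 at 101 to 125, with no spot between them. The 6 dimmer spots lay in columns 10 to 65 of the array and the 9 brighter ones in columns 26 to 164. Split at the middle column of the array, the left side had a median of 81.2 (8 spots) and the right side 114 (7 spots), a difference of -0.49 on the log2 scale. The other probe of miR-370-3p differed by -0.03 between the sides of array 1, and all 100 probes with a median of 40 to 200 had a median difference of -0.03, with 3 of them lower than A_54_P2727. On array 2 the values for the same 2 probes were -0.05 and -0.11, and the probes of miR-494-3p lay between -0.01 and -0.03 on both arrays. These comparisons of the sides kept all 15 spots of each probe of the pair, outlier spots included. On array 2 all outlier spots of miR-370-3p, which were dim, lay on the left side. The cause of the split was not tested.

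The spots of miR-370-3p that the scanner software marked as outliers, and that were left out of the means above, were all dim. On array 1 there was 1, at 70.2, while a spot of the other probe at 69.3 was kept. On array 2 there were 4, at 47.3 to 52.7, below every kept spot of this miRNA. The spot in row 259 and column 42 was marked on both arrays. For miR-494-3p 1 spot was marked on each array, and both were brighter than the kept spots of their probe.

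**Figure D1:**
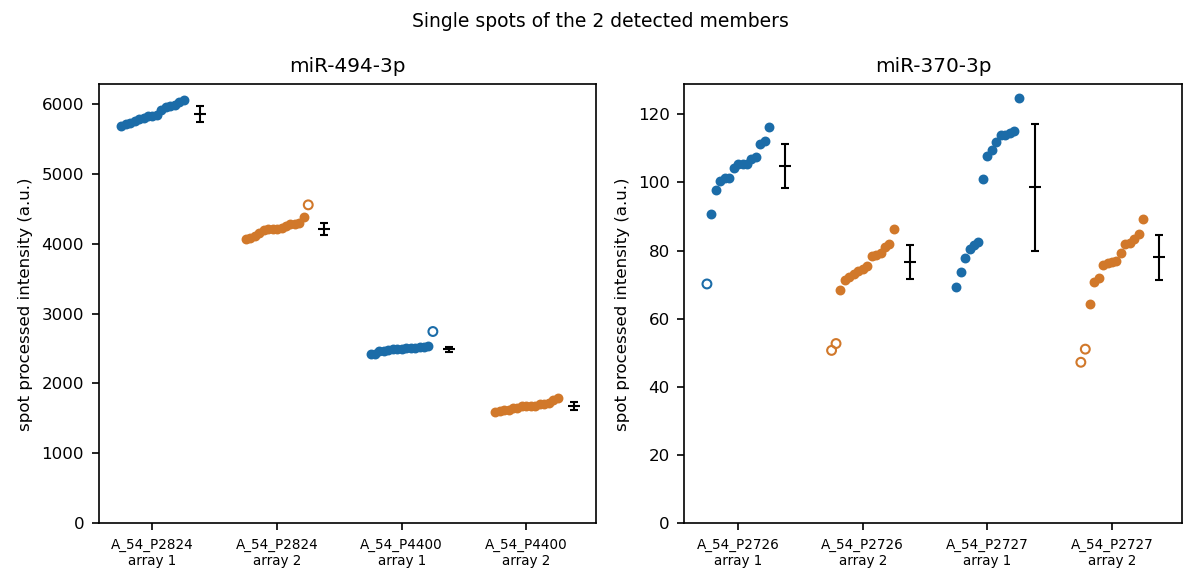
Processed intensity (linear scale, arbitrary units) of every spot of the 2 probes of miR-494-3p (left) and of miR-370-3p (right), array 1 in blue and array 2 in orange, ordered by intensity within each probe; open circles are outlier spots left out of the mean, and the black bars give the mean ± SD of the kept spots. The 2 probes of miR-494-3p stand apart by 2.35 to 2.51 times, those of miR-370-3p lie together, and probe A_54_P2727 falls into 6 dimmer and 9 brighter spots on array 1.

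Without scaling between the arrays, both members were brighter on array 1. The mean log2 intensity of miR-494-3p was 11.90 on array 1 and 11.37 on array 2, a difference of 0.52 or 1.44-fold. For miR-370-3p the log2 values were 6.65 and 6.27, a difference of 0.38 or 1.31-fold. The 201 miRNAs detected on both arrays had a median difference of 0.78, with quartiles of 0.19 and 1.66, and 175 of them were brighter on array 1. Of these 201, 86 (42.8%) had a smaller difference than miR-494-3p and 74 (36.8%) a smaller one than miR-370-3p, so both members lay in the middle of the detected miRNAs. Between the arrays the spike-in controls, where detected (4 of them), moved by 0.06 to 0.17.

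After scaling to the 75th percentile the order turned, since the scaling removed more than either member differed by. The scaled log2 signal of miR-494-3p was 11.04 on array 1 and 12.23 on array 2, and that of miR-370-3p was 5.80 and 7.12, so the arrays differed by -1.19 and -1.33. With the 75th percentile taken over all 1881 miRNAs, the differences were 0.18 and 0.041. The direction of the difference between the arrays therefore changed with the scaling for both members, whereas detection needed no scaling. The mean intensity of miR-494-3p over its probes, 4173 on array 1 and 2942 on array 2, was the highest of the 1881 miRNAs on both arrays, which describes spots and not amounts.

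**Figure D2:**
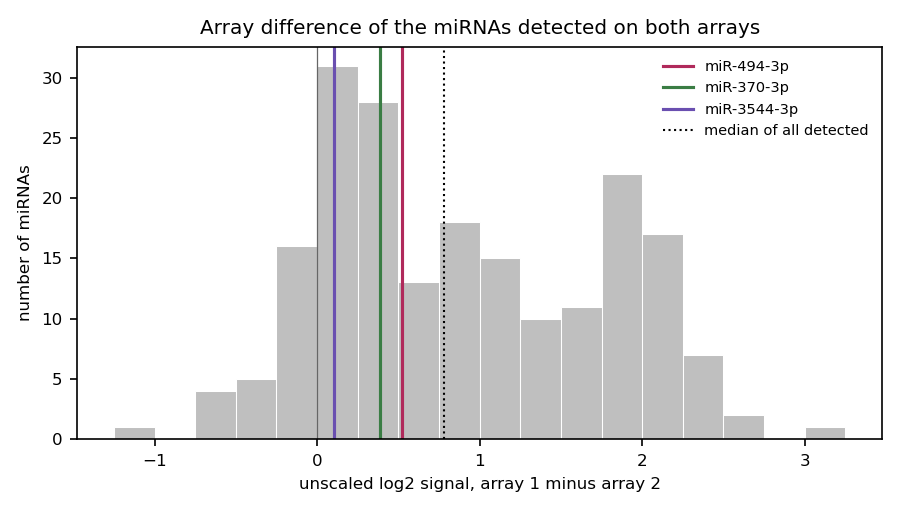
Histogram of the difference in unscaled log2 signal, array 1 minus array 2, for the 201 miRNAs detected on both arrays, with vertical lines for miR-494-3p (0.52), miR-370-3p (0.38), miR-3544-3p (0.10) and, dotted, the median of all 201 (0.78). Most miRNAs were brighter on array 1, and all 3 cluster miRNAs lie below the median.

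The opposite arms of the same hairpins gave no signal. miR-494-5p had a mean intensity of 0.416 on array 1 and 1.25 on array 2, and miR-370-5p had -1.11 and -0.312, values that can lie below 0 because a background was subtracted. The 1000 negative-control spots had a mean of 0.472 ± 2.36 (SD) on array 1 and 1.37 ± 2.81 (SD) on array 2. The means of the 7 kinds of negative control ran from 0.128 to 1.25 on array 1 and from 0.953 to 2.44 on array 2, and neither opposite arm lay above them, while the 3p arms lay far above. Of the 36 opposite arms of members that the array held, 0 were detected on both arrays, against 10.7% of all miRNAs.

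The other 35 members were set against the same negative controls, probe by probe. The limit was the mean plus 3 SD of the negative-control spots, 7.55 on array 1 and 9.81 on array 2. Of all 4415 miRNA probes, 327 (7.41%) exceeded it on both arrays, and so did all 4 probes of miR-494-3p and miR-370-3p. Of all 93 member probes 4 (4.3%) exceeded it on both arrays and on each array, against 14.2% of all probes on array 1 and 7.47% on array 2. Of the 89 probes of the other 35 members 0 exceeded it on either array. These 35 are the members without the detection flag, so a count near 0 was largely set by that choice. The brightest was A_54_P1825 of miR-668-3p on array 1, with 5.33 ± 3.10 (SD, 8 spots), and A_54_P1826 of the same miRNA on array 2, with 6.10 ± 1.53 (SD, 8 spots). The dimmest on both arrays was A_54_P2438 of miR-299a-3p, with -2.85 ± 1.19 (SD, 7 spots) and -3.42 ± 2.17 (SD, 7 spots). No probe had a total signal above 1.86 times its error on array 1 or 2.05 times on array 2, and 0 of the 1024 kept spots on array 1 and 0 of the 1042 on array 2 were marked well above background. With the limit lowered to the mean plus 2 SD, still 0 of the 89 probes exceeded it on both arrays, and 2 probes of miR-668-3p did on array 1 alone.

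**Figure D3:**
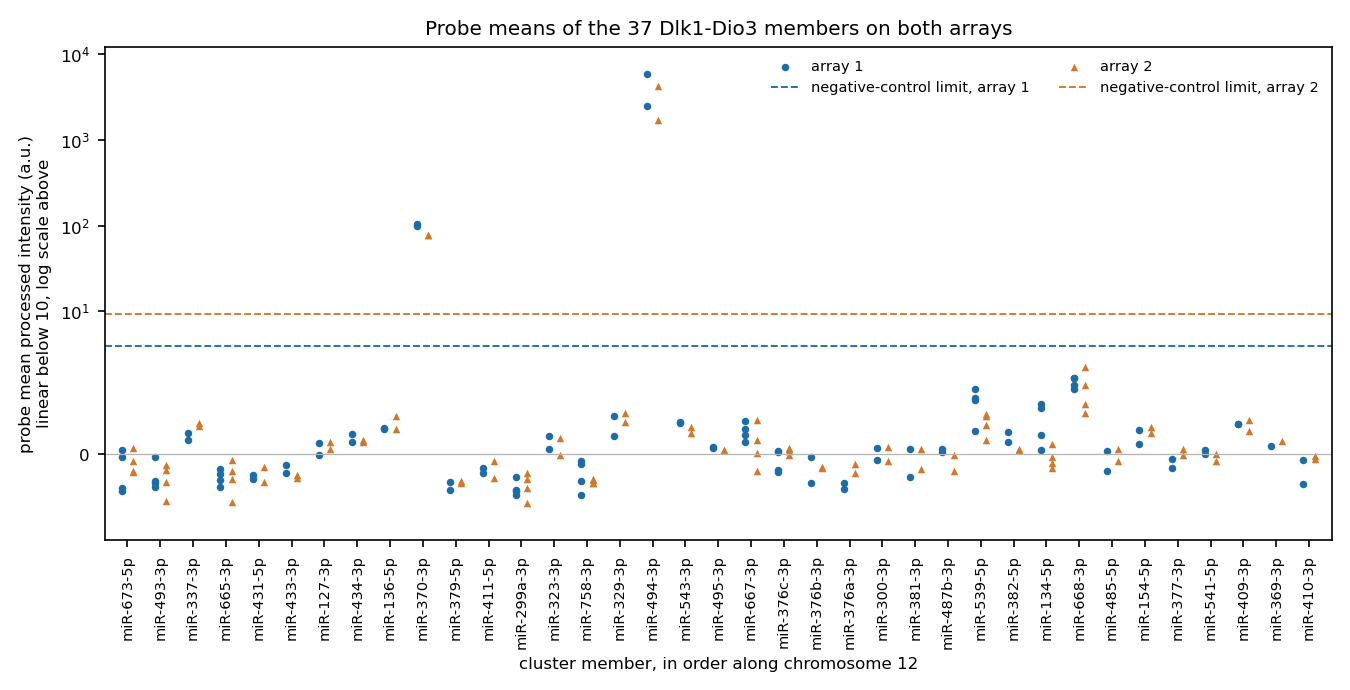
Mean processed intensity of each of the 93 probes of the 37 members (arbitrary units, axis linear below 10 and logarithmic above), with members in order along chromosome 12, array 1 as blue circles, array 2 as orange triangles and the negative-control limits of 7.55 and 9.81 as dashed lines. Only the probes of miR-370-3p and miR-494-3p lie above the limits, and the probes of the other 35 members scatter around 0.

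As a list, the other 35 members had a median intensity of 0.153 on array 1, with a range of -2.36 to 5.01, and of 0.0120 on array 2, with a range of -2.20 to 4.35. Their intensity lay below 0 for 16 members on array 1 and for 17 on array 2. Over all 1881 miRNAs the medians were 0.337 and 0.0955, and over the 1568 miRNAs detected on neither array they were -0.0860 and -0.248. The medians of the 35 members were thus the higher of the 2 undetected lists on both arrays. Both lists hold only miRNAs without the detection flag, so low values in both follow from that choice. In RNA pooled from all the vesicles of a sample, fewer vesicles that carry a miRNA and fewer copies in each vesicle cannot be told apart, and a miRNA below this limit was not detectable on these arrays rather than absent.

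By position, the 9 members within the span of Rtl1 lie on the strand opposite to it, and several of them, such as miR-127-3p, miR-431-5p, miR-433-3p, miR-434-3p and miR-136-5p, are known to cut the Rtl1 mRNA through full complementarity. Their mean intensities ran from -1.60 to 1.81 on array 1 and from -1.73 to 2.25 on array 2, and 5 of the 9 were below 0 on each array. The 6 members within the span of Mirg, the non-coding gene at the far end of the cluster, ran from -1.22 to 2.15 and from -0.212 to 2.0. A further 21 members lie in no annotated host gene, in a stretch that includes miR-134-5p, a regulator of dendritic spine size through Limk1, and the miR-376 miRNAs, known for A-to-I editing of their precursors. Of these 21, miR-494-3p was detected, and the other 20 ran from -2.36 to 5.01 and from -2.20 to 4.35. The only member within Rian was miR-370-3p. The detected pair thus came from separate stretches of the cluster. With only 2 of the 37 members detected, each of the 3 stretches with more than 1 member had to hold mostly undetected members.

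The 5 brightest undetected members were given with both arrays, because a signal just under the limit would show there first. mmu-miR-668-3p stood at 5.01 on array 1 and 4.35 on array 2 over 4 probes. mmu-miR-539-5p followed with 3.49 and 2.14. miR-329-3p, one of the neuronal miRNAs of the cluster, had 1.98 and 2.59. All 3 lay below the limits of 7.55 and 9.81. On both arrays miR-668-3p and miR-329-3p lay above the means of all 7 kinds of negative control, which reached 1.25 on array 1 and 2.44 on array 2. miR-409-3p had 2.15 and 2.0, and miR-136-5p had 1.81 and 2.25. Every probe of these 5 members had a mean above 0 on both arrays, but the 5 were picked for their brightness on these arrays. The negative-control spots themselves had means above 0, at 0.472 on array 1 and 1.37 on array 2. At the other end, miR-758-3p had -1.44 and -1.88, miR-379-5p had -2.22 and -1.91 and miR-299a-3p had -2.36 and -2.20. The highest member and the 2 lowest were the same on both arrays.

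The order of the undetected members repeated between the arrays. Over the 35 members the intensities on the 2 arrays had a Pearson correlation of 0.907 and a Spearman correlation of 0.894, given as a description. Over the 1568 miRNAs detected on neither array these were 0.802 and 0.792. The points share the array design, the slide and the background subtraction. The means of the 7 kinds of negative control spanned a narrower range than the members did on both arrays, but the 2 ranges rest on unlike numbers. The 7 control means together average 1000 spots an array, whereas each of the 35 members has at most 30. What sets the order of the undetected members was not tested.

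**Figure D4:**
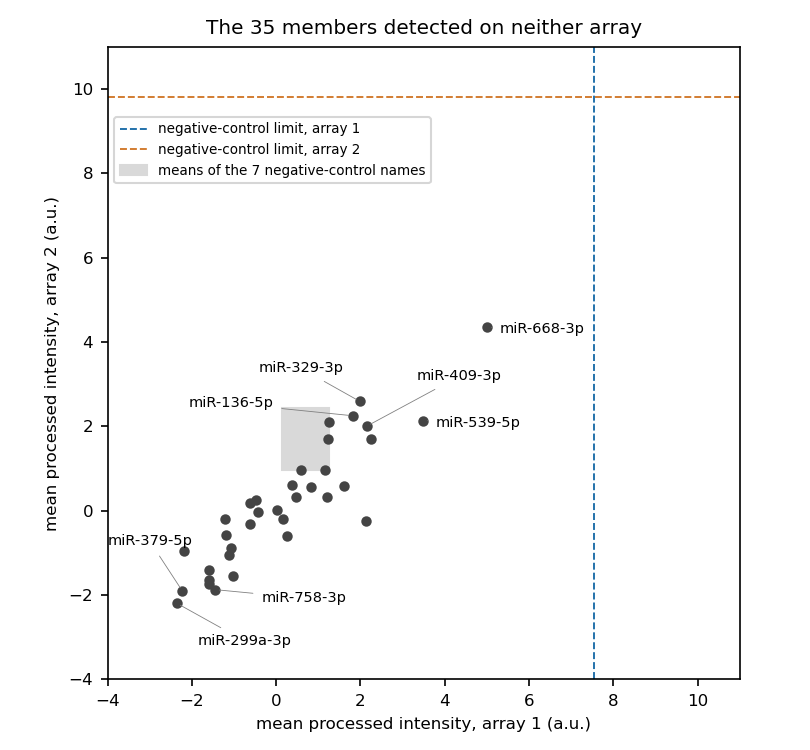
Mean processed intensity (arbitrary units, linear axes) of the 35 members detected on neither array, array 1 against array 2, 1 point a member, with the negative-control limits of 7.55 and 9.81 as dashed lines and the range of the 7 negative-control names as a grey box. All 35 points lie below both limits and along the diagonal, with miR-668-3p highest at 5.01 and 4.35.

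Beyond the 37 members, the array held 72 other mature miRNAs of hairpins that lie between the first and the last member, and 1 of them (1.39%, against 10.7% of all miRNAs) was detected on both arrays. This was miR-3544-3p, which comes from the minus strand, and it is shown with the 5′ arm of the hairpin that it overlaps.
miR-3544-3p: aCUCCUGCaugacgccguuccc
miR-337-5p: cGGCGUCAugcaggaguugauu
miR-3544-3p lies at chr12:109585813-109585834 on the minus strand, and miR-337-5p at chr12:109585818-109585839 on the plus strand. A run of 17 of the 22 bases of miR-3544-3p is complementary to miR-337-5p. Its mean intensity was 11.6 on array 1 and 11 on array 2, close above the limits, and it stood out far less than the bright pair did. Probe A_54_P00005765 gave 12.2 ± 3.52 (SD, 15 spots) on array 1 and 10.9 ± 3.16 (SD, 15 spots) on array 2. Probe A_54_P00005766 gave 11 ± 2.14 (SD, 15 spots) and 11 ± 3.0 (SD, 15 spots). Their totals were 3.97 and 3.65 times the error on array 1 and 3.49 and 3.53 times on array 2, and 7 of 30 spots on array 1 and 2 of 30 on array 2 were marked well above background. The call was lost when a majority of spots well above background, or a total over 6 times its error, was asked for, which left 0 of the 72.

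The miRNAs that share the locus of miR-3544-3p gave no such signal. miR-337-5p, to which it is complementary, had -0.480 on array 1 and -1.09 on array 2, and the member miR-337-3p had 1.24 and 2.10. The other arm, miR-3544-5p, had -0.652 and -0.273. On the unscaled log2 scale miR-3544-3p differed by 0.10 between the arrays, and 37 of the 201 detected miRNAs (18.4%) had a smaller difference. The next hairpin past the last member, Mir3072, lies outside the span counted here, and its miR-3072-5p, named after its values were seen, was detected on both arrays with 17.1 and 8.82.

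The count of detected members was the same under every rule tried. It was 2 of 37, and the same 2, on array 1 alone, on array 2 alone and on at least 1 array (16.6% of all miRNAs). It was also 2 with a majority of spots well above background (4.68% of all miRNAs), with a probe over the negative-control limit (10.0%) and with a total over 6 times its error (4.52%), each on both arrays. Under the rules that asked for a majority of spots or for 6 times the error, the share of members was close to the share of all miRNAs.

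The authors' deposited value table, in log2 units, gave the same pair. On array 1 it held 35 members at its lowest value of -3.32, and on array 2 it held 34. It listed miR-494-3p at 10.25 on both arrays and miR-370-3p at 4.48 and 5.47. The columns of the authors' deposited table hold the same set of values in another order, so that a miRNA with the same rank on both arrays, such as miR-494-3p, has equal values there by construction. For miR-370-3p the authors' deposited table is higher on array 2, as the scaled values are and as the unscaled intensities are not.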

How the data were processed

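RNA of 2 exosome samples was read on Agilent mouse miRNA arrays with Cy3 as the only dye. The labels' protocols name a kit that amplifies cRNA, whereas the file headers name a scanner protocol for miRNA, so the labelling is uncertain. The deposited scanner files hold spot intensities, which the submitters' processing notes credit to Feature Extraction version 10.7.1.1, background-subtracted within each array and not normalized between arrays. The value table that the authors deposited is on the log2 scale, with that scale found by comparison with the scanner values and centring unknown. Slide and scan were the same for the 2 arrays, per the file headers, so neither could be tested as a batch.

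Control spots were left out, and so were spots that the software called population outliers (28 of 1110 member spots on array 1, 13 on array 2). Only the comparison of the sides of the array kept the outlier spots in its main values. Intensities were scaled to the 75th percentile of the miRNAs detected on both arrays, floored at 1, put on the log2 scale, and averaged over spots and then probes. The members, the lists and the rules were chosen with earlier results of these data known. All members could be named, with full values for those detected on at least 1 array and with the 5 brightest and 3 dimmest of the others; other cluster miRNAs were named where detected, with the opposite arms of the detected pair. Of 58 hairpin names listed for the cluster, those giving 4 mature names lay outside the first and last member and were dropped. Sequences of 71 of the 72 other cluster miRNAs were matched. Alternatives were other detection rules, scalings, background correction (normexp, offset 50), spot and probe summaries, floors and each array alone. Python 3.11.15, numpy 2.4.6, pandas 2.3.3, scipy 1.17.1, matplotlib 3.10.9, R 4.3.3 and limma 3.58.1 were used. The calculations were tested on simulated arrays of 1881 miRNAs, and 4 of 4 checks passed. The number of arrays limits the precision of every value.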

Additional observations from a re-analysis of the deposited data

Results flagged for a closer look

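In the authors' deposited value table, 2 cluster miRNAs stood above the lowest value of -3.32 on array 2 although the scanner file did not call them detected there. The member miR-134-5p was at 0.40 on array 2 and at -3.32 on array 1 in that table, whereas its mean intensity in the scanner files was -0.254 on array 2 and 2.12 on array 1. miR-1188-3p was at -0.92 on array 2 and at -3.32 on array 1. These values were listed because they are a signal in data that the counts above do not use; the sources used here do not give how the table was made.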

How the results depend on the processing

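The count of 2 detected members was the same under every alternative run, each array alone included. The count of 0 probes of the other 35 members above the limit on both arrays was the same under each alternative. It was also 0 on each array alone at the mean plus 3 SD. At the mean plus 2 SD on array 1 alone it was 2, namely 2 of the 4 probes of miR-668-3p. The count of other cluster miRNAs was 1, and 0 with a majority of spots well above background or a total over 6 times its error. In the authors' deposited table miR-494-3p had a mean of 10.25 and miR-370-3p of 4.98, against 11.64 and 6.46. Every other alternative moved these 2 levels by less than the SD of the scaled values (0.84 and 0.94). That SD is widened by the 1.71 log2 units removed between the arrays, and without scaling it was 0.37 and 0.27. Moves larger than the unscaled SD were those of miR-494-3p to 12.28 with the brightest probe and of miR-370-3p to 7.20 with normexp. The scaling shifts the 2 arrays by equal and opposite amounts. Their mean therefore could not change with another percentile or without scaling, and these settings do not test the levels. On 1 array, unscaled, the 2 levels ran from 11.37 to 11.90 and from 6.27 to 6.65. On the right side of the array, chosen after seeing the data, they were 11.65 and 6.53. The median of the other 35 members, 0.47 ± 0.46 (SD, n = 2), was 5.87 with normexp, 0 with medians over spots and 2.06 with a floor of 4, each of which sets low values by its own construction, and 0.35 to 0.51 on 1 array. The scaled difference between the arrays reversed, for miR-494-3p from -1.19 to 0.18 with the percentile over all miRNAs and 0.52 without scaling, and for miR-370-3p from -1.33 to 0.041 and 0.38; with normexp it shrank to -0.20 and -0.48, and for miR-494-3p it was 0 with quantile normalization. No paired analysis was possible because there was only 1 group. Signal near the negative controls limits what can be said of the undetected members.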
